A study of Mus musculus with 8 samples.

Results

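The major histocompatibility complex (MHC) class II genes of mouse Paneth cells (PCs) and their transactivator Ciita were examined 3 hours after injection of tumor necrosis factor (TNF). The 7 genes were chosen by symbol for their place in class II antigen presentation and not by a measured value, out of 55414 gene IDs in the count table. They are Ciita, the antigen-presenting chains H2-Aa, H2-Ab1 and H2-Eb1, the invariant chain Cd74, and the peptide-exchange chains H2-DMa and H2-DMb1. All 7 were detected in all 8 libraries, and all 7 passed the filter on low counts.

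RNA was sequenced from PCs, which sit at the bottom of the small intestinal crypts and secrete antimicrobial proteins, to find how TNF, an inflammatory cytokine, changes their gene expression. Wild-type (WT) mice received PBS (phosphate-buffered saline, the control) or TNF by injection, so the cytokine acted on the whole animal, and a cell sorter was used to purify PCs from the small intestine after 3 hours. Each group held 4 libraries, which the series describes as biological replicates. The study's methods name C57BL/6J as the strain of its sorted PCs, and its datasets hold animals of both sexes, while the sex per library, the age and the TNF dose are not given in the sources used.

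Class II molecules are pairs of an alpha and a beta chain that carry peptides from endocytosed proteins to the cell surface, where CD4+ T cells read them. Newly made pairs are bound by the invariant chain Cd74, which blocks the groove until proteases cut it down, and H2-M (the pair of H2-DMa and H2-DMb1) then swaps its last fragment for a peptide. Nearly all of these genes share a promoter module, the X1, X2 and Y boxes, which hold the RFX complex, CREB-type factors and NF-Y. Ciita does not bind DNA itself but docks on that complex, and its own amount is known to set class II transcription in most cells. In intestinal epithelium class II genes are best known in stem cells and in cells exposed to interferon gamma.

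The shared module can be read in the promoters. The RefSeq promoter table (GRCm38.p6, 250 bases before to 50 after each start) held H2-DMb1, H2-Aa, H2-Eb1 and H2-DMa, with no entry for Ciita and H2-Ab1, and the Cd74 promoter was not analysed here. The sequences below are shown because they carry the letters by which these genes are commonly controlled. Each is 70 bases long, on the strand of its gene, on chromosome 17 upstream of the start. H2-DMb1 is chr17:34153074-34153143 on the plus strand, H2-Aa is chr17:34287858-34287927 on the minus strand, and H2-Eb1 is chr17:34305752-34305821 on the plus strand. Capitals mark matches to CTAGNAAC followed by TGATGATG (X1 and X2 type letters), to TGACGTCA (the CREB-type palindrome) and to GATTGG (the Y box, which is CCAAT read on the other strand).
H2-DMb1: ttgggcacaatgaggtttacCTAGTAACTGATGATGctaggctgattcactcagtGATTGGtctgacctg
H2-Aa: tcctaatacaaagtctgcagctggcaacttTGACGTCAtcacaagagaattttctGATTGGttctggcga
H2-Eb1: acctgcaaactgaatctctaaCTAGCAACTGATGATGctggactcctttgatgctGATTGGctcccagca

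The GATTGG match began at position -62 in H2-DMb1, -49 in H2-Aa and -60 in H2-Eb1, counted from the RefSeq start, and H2-Eb1 had a further match on the other strand at -35. The X2-type letters began 27 bases before it in H2-DMb1, 26 in H2-Eb1 and 25 in H2-Aa, so the spacing was nearly fixed. Both strands of all 32544 promoter windows were searched for the same letters, and the matches printed here do not overlap one another. GATTGG stood in 16.1% of windows, CTAGNAAC in 3.63%, TGACGTCA in 1.80%, TGATGATG in 1.44%, and GATTGG together with CTAGNAAC in 0.522%. TGATGATG was taken from the X2 box of 2 members, H2-DMb1 and H2-Eb1, so its match in these genes was set in advance. H2-DMa had 2 windows, of which 1 held GATTGG at position -199 and the other none of these letters. Such matches describe the sequence only.

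The 8 libraries held 23824717 to 32576077 counts. The 7 genes together took 2711 to 4233 counts in the PBS libraries and 1064 to 4343 in the TNF libraries, which is 0.0101 to 0.0130% and 0.00409 to 0.0150% of all counts. TNF replicate 4 stood apart: Defa genes (the alpha-defensins, the main PC product) took 51.4% of its counts against 32.0 to 37.9% elsewhere, its TMM scaling factor was 0.448 against 0.995 to 1.36, and its second principal component score was 63.9 against -29.1 to 4.22. The log2 fold changes of the 7 genes are given with and without it. Levels below are normalized CPM, counts scaled to the TMM-adjusted library size (CPM is counts per 1e6).

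Ciita was higher in TNF, and it was the 1 gene of the 7 that passed the test. Its level rose 2.56-fold, from 1.26 ± 0.429 to 3.19 ± 1.05 normalized CPM (SD, n = 4). The class II chains, Cd74 and the H2-M chains did not pass. Of all 13368 genes tested, 43.0% passed, 23.4% higher and 19.6% lower, so 1 of 7 is below the share of the whole table. The median log2 fold change of the 7 genes was 0.29, beside 0.03 for all genes tested.

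Ciita (ENSMUSG00000022504, chromosome 16, 10297923 to 10347694, plus strand, GRCm39) was the least abundant of the 7 in PBS. In each TNF library its normalized CPM were above those of H2-DMb1, a shorter transcript. The PBS libraries held 49, 17, 39 and 68 Ciita counts, or 1.31, 0.632, 1.54 and 1.54 normalized CPM. The TNF libraries held 90, 131, 87 and 23 counts, or 3.19, 4.53, 3.05 and 1.97 normalized CPM. Every TNF value lay above every PBS value, which was so for 42.1% of all genes tested in 1 direction or the other and for 22.4% with TNF above (19.7% with TNF below). The log2 fold change was 1.36 (SE 0.31, 95% interval 0.66 to 2.05, adjusted p = 0.00516 by edgeR's quasi-likelihood test with Benjamini-Hochberg adjustment). The separation of the groups depended on scaling in 1 library. As plain CPM, without the TMM factor, TNF replicate 4 stood at 0.885 (95% counting interval 0.561 to 1.33), inside the PBS range of 0.664 to 2.09. With library size alone the log2 fold change of Ciita was 1.01 and the call was lost (edgeR, adjusted p = 0.1205). That scaling moved the median of all genes by -0.40, and relative to that median Ciita stood at 1.38, beside 1.33 with TMM. Ciita remained higher with an adjusted p of at most 0.0319 under each of the other alternatives, and without TNF replicate 4 its log2 fold change was 1.51. A stretch of 412 exonic bases of its canonical transcript is also covered on the opposite strand by Dexi, whose own log2 fold change was -0.13 (edgeR, adjusted p = 0.412).

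**Figure D1:**
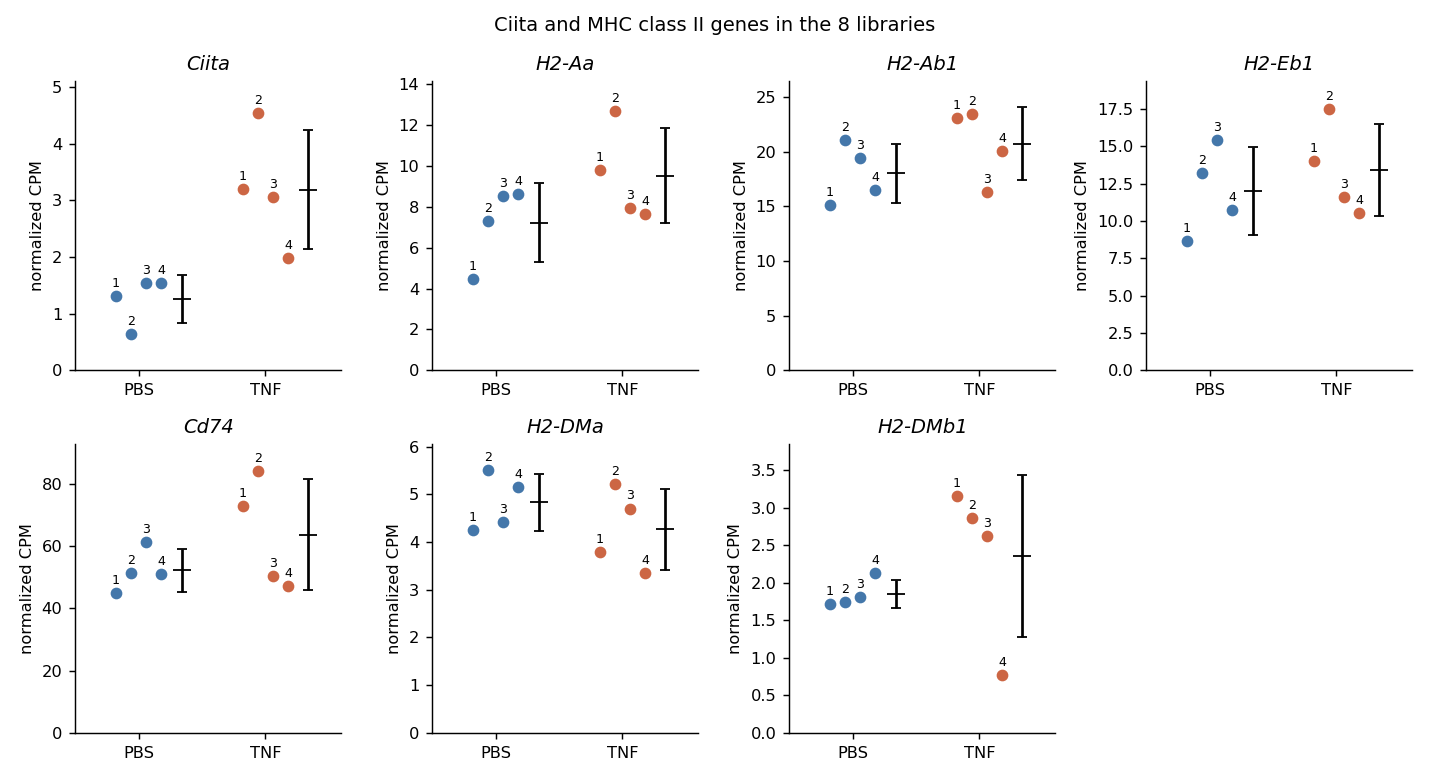
Normalized CPM of Ciita and the 6 structural genes in each library (vertical axes from 0, 1 scale per gene), with points numbered by replicate and bars for the mean ± SD of 4 libraries. The TNF points of Ciita (1.97 to 4.53) sit above all PBS points (0.632 to 1.54), while the points of the other 6 genes overlap between the groups.

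H2-Ab1 and H2-Aa, the beta and alpha chains of I-A, were expressed in PCs without TNF. H2-Ab1 (ENSMUSG00000073421, chromosome 17, 34476663 to 34488393, plus strand) was read at 15.1, 21.0, 19.4 and 16.5 normalized CPM in PBS and at 23.1, 23.5, 16.3 and 20.01 in TNF. H2-Aa (ENSMUSG00000036594, 34493404 to 34506798, minus strand) was read at 4.45, 7.29, 8.55 and 8.64 in PBS and at 9.79, 12.7, 7.93 and 7.64 in TNF. For both chains the highest pair of libraries was TNF replicates 1 and 2, and TNF replicates 3 and 4 lay among the PBS values. The log2 fold change was 0.20 for H2-Ab1 (SE 0.15, interval -0.13 to 0.54, edgeR adjusted p = 0.305). It was 0.41 for H2-Aa (SE 0.23, interval -0.11 to 0.92, edgeR adjusted p = 0.182). Neither difference passed the test, and the intervals run from small falls to rises of 0.54 and 0.92 on the log2 scale. Without TNF replicate 4 the values were 0.24 and 0.51. Leaving out any 1 library gave 0.096 (without PBS replicate 1) to 0.31 for H2-Ab1 and 0.20 (without TNF replicate 2, and likewise without PBS replicate 1) to 0.51 for H2-Aa, and neither gene passed in any of these fits.

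H2-Eb1, the beta chain of I-E (ENSMUSG00000060586, 34504236 to 34535648, plus strand), stood at 8.66, 13.2, 15.4 and 10.8 normalized CPM in PBS and at 14.02, 17.5, 11.6 and 10.6 in TNF. The groups overlapped over most of their range, and the log2 fold change was 0.17 (SE 0.21, interval -0.28 to 0.63, edgeR adjusted p = 0.530). Leaving out TNF replicate 4 gave 0.28, leaving out TNF replicate 2 gave -0.017, and leaving out PBS replicate 3 gave 0.31. Its partner chain gene H2-Ea had 0 counts in all 8 libraries, and C57BL/6 mice are known not to express it, so H2-Eb1 transcript was counted with no transcript of its alpha chain. The gene span of H2-Eb1 overlaps that of H2-Aa on the opposite strand, and 130 of its canonical exonic bases overlap Gm20513, which had 0 to 4 counts.

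Cd74 (ENSMUSG00000024610, chromosome 18, 60936899 to 60945731, plus strand), the invariant chain, was the most abundant of the 7 and ranked 1264 among all genes by its PBS mean. Its levels were 44.9, 51.4, 61.4 and 51.1 normalized CPM in PBS and 72.8, 84.0, 50.3 and 47.1 in TNF. As with the I-A chains, TNF replicates 1 and 2 were the highest libraries and replicates 3 and 4 were not apart from PBS. The means were 52.2 ± 6.82 and 63.6 ± 17.8, and the log2 fold change was 0.29 (SE 0.19, interval -0.13 to 0.71, edgeR adjusted p = 0.250). Without TNF replicate 4 it was 0.42 and passed (edgeR, adjusted p = 0.0485). Leaving out TNF replicate 2 lowered it to 0.090 (edgeR, adjusted p = 0.748).

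Cd74 is also known to serve as a receptor for the cytokine Mif together with Cd44, and of the 3 genes Mif, Ddt (a relative of Mif) and Cd44 the last passed. Cd44 was read at 20.05, 20.9, 23.0 and 17.0 normalized CPM in PBS and at 61.5, 52.6, 48.5 and 61.9 in TNF. All TNF values were above all PBS values, and Cd44 rose by 1.47 on the log2 scale (SE 0.13, edgeR adjusted p = 1.02e-05). The log2 fold changes of Mif (0.28, edgeR adjusted p = 0.129) and Ddt (0.03, edgeR adjusted p = 0.961) did not pass.

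The H2-M chains differed from each other in how they were placed. H2-DMa (ENSMUSG00000037649, 34338515 to 34358958, plus strand) stood at 4.26, 5.50, 4.41 and 5.16 normalized CPM in PBS and at 3.80, 5.22, 4.70 and 3.35 in TNF, with a log2 fold change of -0.16 (SE 0.18, interval -0.56 to 0.23, edgeR adjusted p = 0.481). It was the only one of the 7 with a mean lower in TNF, and its log2 fold change was -0.064 without TNF replicate 4 and -0.31 without TNF replicate 2. H2-DMb1 (ENSMUSG00000079547, 34372046 to 34379204, plus strand) stood at 1.72, 1.75, 1.81 and 2.13 in PBS and at 3.16, 2.87, 2.63 and 0.773 in TNF. In 3 TNF libraries H2-DMb1 was above all PBS libraries, and in TNF replicate 4 it was the lowest of all 8, on 9 counts (0.346 plain CPM, 95% counting interval 0.158 to 0.657). Its log2 fold change was 0.40 with all libraries (SE 0.32, interval -0.31 to 1.11, edgeR adjusted p = 0.341) and 0.65 without TNF replicate 4 (edgeR, adjusted p = 0.0106). Without TNF replicate 1 it was 0.24 (edgeR, adjusted p = 0.640). Leaving out TNF replicate 4 thus brought the number of the 7 genes called from 1 to 3, all higher in TNF. In that fit 6922 of 13726 genes were called, 3657 higher and 3265 lower. The 3 of 7 are thus a smaller share than that of all calls, but a larger one than that of genes called higher. Of the 75-base stretches in the canonical H2-DMb1 transcript 76.1% occur in no other gene, the rest being shared with H2-DMb2 and Gm64535, so its counts are less certain. For the other 6 genes this share was 96.5 to 100%. H2-DMb2 itself had 1 count in each of TNF replicates 2 and 3 and 0 elsewhere.

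Compared per kilobase of canonical transcript, the levels fell in the order Cd74, H2-Ab1, H2-Eb1, H2-Aa, H2-DMa, H2-DMb1 and Ciita. In PBS they were 36.5 ± 4.77 normalized CPM per kilobase for Cd74, 14.9 ± 2.23 for H2-Ab1, 7.08 ± 1.74 for H2-Eb1 and 6.41 ± 1.73 for H2-Aa. Below these stood H2-DMa at 4.20 ± 0.516, H2-DMb1 at 1.32 ± 0.134 and Ciita at 0.168 ± 0.0573. In TNF the values were 44.4 ± 12.4, 17.1 ± 2.74, 7.91 ± 1.82, 8.44 ± 2.06, 3.71 ± 0.739, 1.68 ± 0.768 and 0.426 ± 0.140 in the same order of genes. Each neighbour stood above the next in 8 of 8 libraries, with the exception of H2-Eb1 and H2-Aa, which did not differ beyond their spread: H2-Eb1 was above H2-Aa in 3 of 4 PBS libraries and in 0 of 4 TNF libraries. Without a length correction, the ranks among all genes in PBS ran from 1264 for Cd74 over 4068 for H2-Ab1 and 5567 for H2-Eb1 to 7321 for H2-Aa, 8520 for H2-DMa, 10707 for H2-DMb1 and 11373 for Ciita.

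Ratios of counts within a library do not depend on scaling and were compared for 6 pairs. H2-Aa and H2-Ab1 together gave 14.8, 43.6, 17.99 and 16.2 counts per Ciita count in PBS and 10.2, 7.95, 7.90 and 13.7 in TNF. Every TNF library was below every PBS library, so relative to the I-A chains Ciita was higher in TNF in each comparison of libraries. The log2 ratio fell from 4.38 ± 0.720 to 3.28 ± 0.377 (difference -1.10). The two-sided exact permutation test over 70 assignments gave p = 0.0286, the smallest that 4 against 4 libraries allow, and an adjusted p of 0.171 over the 6 ratios, which did not pass.

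The other ratios overlapped between the groups. H2-Ab1 exceeded H2-Aa by 1.35 ± 0.368 in PBS and 1.14 ± 0.219 in TNF on the log2 scale (exact permutation test, adjusted p = 0.557). Cd74 exceeded the sum of the I-A chains by 1.05 ± 0.148 in PBS, and the group means differed by -0.01 (exact permutation test, adjusted p = 0.971). H2-Eb1 to H2-Ab1 moved by -0.03 (exact permutation test, adjusted p = 0.971), and the H2-M chains to the I-A chains by -0.31 (exact permutation test, adjusted p = 0.557). The ratio of H2-DMa to H2-DMb1 moved by -0.37 (exact permutation test, adjusted p = 0.557), with TNF replicates 1 to 3 below all PBS libraries and TNF replicate 4 above them, and it moved by -0.72 without that library. In counts, Cd74 gave 1.70 to 2.32 per count of the I-A chains over all 8 libraries.

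**Figure D2:**
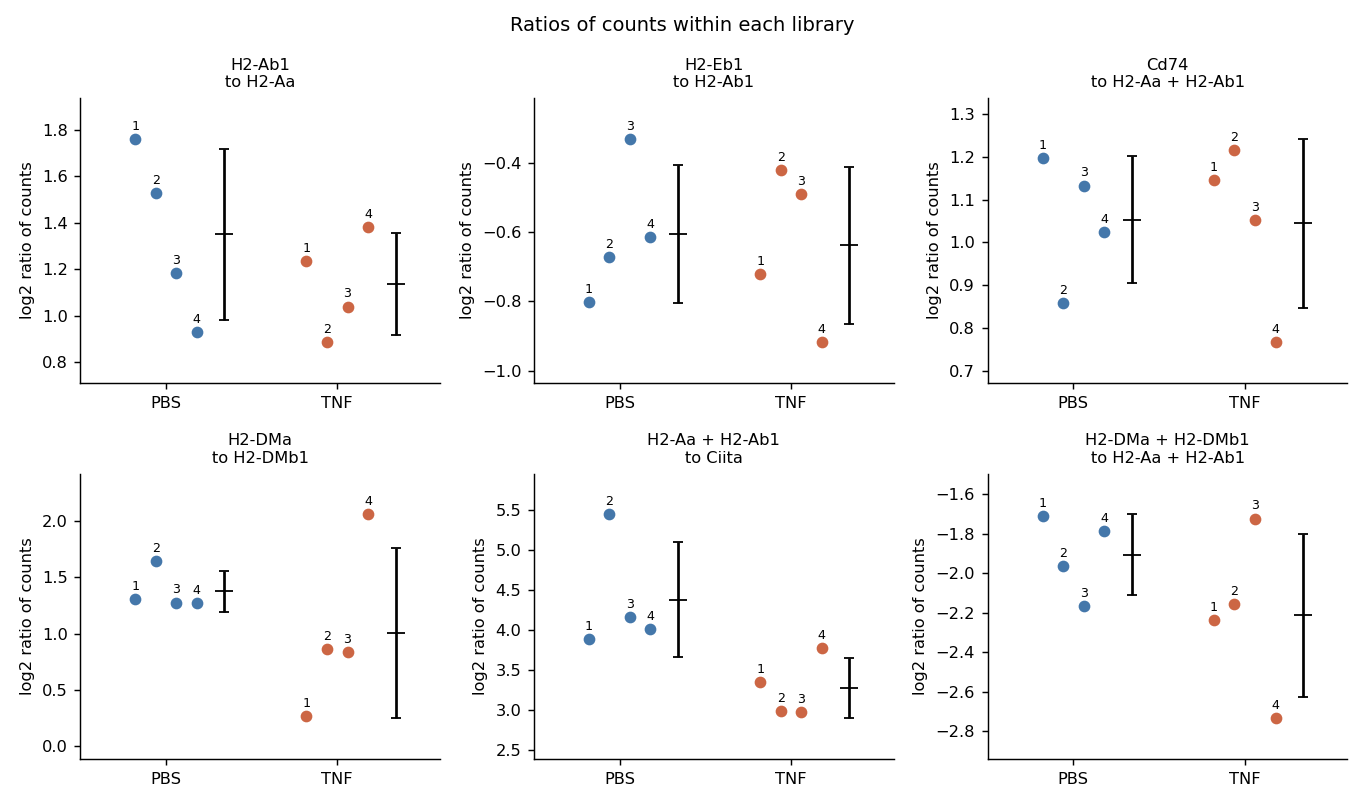
Log2 ratio of counts (plus 0.5) for 6 pairs within each library, with points numbered by replicate and bars for the mean ± SD of 4 libraries. In the panel of H2-Aa + H2-Ab1 to Ciita the TNF points all lie below the PBS points (means 3.28 and 4.38), and in the other panels the groups overlap.

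How the 7 genes moved together was measured as the root mean square difference of their centred log2 CPM over the 8 libraries. The closest pairs were H2-Eb1 and Cd74 (0.148), H2-Ab1 and H2-Eb1 (0.185) and H2-Ab1 and Cd74 (0.189). Ciita lay at 0.637 to 0.880 from each of the others, farther than any of them from one another, as H2-DMb1 stood 0.445 to 0.575 from the other structural genes. The genes with a pattern most like the mean of the 7 were Spag17 (0.0881), Borcs6 (0.110), Yars1 (0.134), 9930014A18Rik (0.136) and Tlnrd1 (0.138). Those most like Ciita were Gm20707 (0.283), Fmnl2 (0.294), Septin9 (0.298), Parm1 (0.301) and Sema4d (0.306).

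Genes that carry the signal to Ciita, or restrain it, were all higher in TNF. Ciita is classically switched on by interferon gamma through its receptor chains Ifngr1 and Ifngr2, the kinases Jak1 and Jak2, and factors such as Irf1, Irf2 and Usf1, while Socs1 blocks the kinases and Prdm1 represses the Ciita gene. All 10 genes listed for this route were called higher, beside 23.4% of all genes tested, and their median log2 fold change was 1.47, beside 0.03. The list was chosen with earlier results of these data known, and Socs1 and Prdm1 passed the filter through the TNF group alone. The count is therefore no independent test. Irf1 went from 27.6, 24.8, 28.5 and 31.9 normalized CPM in PBS to 131, 155, 165 and 124 in TNF, a rise of 2.35 on the log2 scale (SE 0.14, edgeR adjusted p = 6.68e-07). The lowest TNF library was well above the highest PBS library. The receptor chains rose by 1.00 (Ifngr1, edgeR adjusted p = 3.08e-05) and 1.602 (Ifngr2, edgeR adjusted p = 3.86e-06). Jak2 rose by 1.86 (edgeR, adjusted p = 2.99e-05), Jak1 by 0.82 (edgeR, adjusted p = 0.000300), Irf2 by 0.86 (edgeR, adjusted p = 0.000308) and Usf1 by 0.72 (edgeR, adjusted p = 0.0146). Usf1 stood at 45.9 normalized CPM in TNF replicate 4 and at 22.3 to 28.8 in the other TNF libraries. Its log2 fold change ran from 0.48 to 0.82 when 1 library was left out.

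Both restraining genes were called higher from low PBS levels. Socs1 went from 0.0804, 0.0372, 0.118 and 0.294 normalized CPM to 2.63, 3.39, 3.40 and 3.18, which is 4.40 on the log2 scale (SE 0.40, edgeR adjusted p = 1.24e-05). Prdm1 went from 0.750, 0.521, 0.276 and 0.520 to 4.61, 5.64, 7.93 and 3.09, which is 3.34 on the log2 scale (SE 0.34, edgeR adjusted p = 2.62e-05). In PBS both were near the limit of counting, with Socs1 at 1 to 13 counts per library and Prdm1 at 7 to 28. Both passed the filter through the TNF group alone, so the size of their fold changes is uncertain. With library size alone, the calls of Ifngr1, Jak1, Irf2 and Usf1 were lost, and those of Ifngr2, Jak2, Irf1, Socs1 and Prdm1 were not.

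The proteins that Ciita meets at the promoter were mostly not called. Of 10 listed genes 1 was higher and 1 lower, beside 23.4% higher and 19.6% lower of all genes tested, with a median log2 fold change of 0.11. Creb1, the X2 box factor, went from 21.0, 18.9, 21.9 and 26.4 normalized CPM to 37.1, 34.7, 33.3 and 43.8, a rise of 0.75 (SE 0.13, edgeR adjusted p = 0.00114). Ep300, a histone acetyltransferase, was lower, at -0.54 on the log2 scale (SE 0.17, edgeR adjusted p = 0.0258), and its PBS and TNF values overlapped. The RFX subunits Rfx5 (0.30), Rfxap (-0.14) and Rfxank (0.34), the NF-Y subunits Nfya (0.20), Nfyb (0.04) and Nfyc (0.14), and the acetyltransferases Crebbp (-0.07) and Kat2b (0.07) did not pass. The rise of Creb1 was lost with library size alone, and the fall of Ep300 without TNF replicate 3.

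Genes of peptide loading and class II turnover showed no common direction. Of 11 listed genes 10 were tested, and 2 were higher and 2 lower, near the shares of all genes tested (23.4% higher and 19.6% lower). The median was -0.04. Sppl2a, the membrane protease that clears the last stump of Cd74, went from 179, 189, 178 and 185 normalized CPM to 290.1, 297, 314 and 239, a rise of 0.64 (SE 0.13, edgeR adjusted p = 0.00215). Marchf8, a ubiquitin ligase that removes class II from the surface, went from 45.6, 47.8, 45.9 and 46.3 to 33.2, 29.7, 34.8 and 29.7, which is -0.54 on the log2 scale (SE 0.10, edgeR adjusted p = 0.00136). In both genes the groups did not overlap. With library size alone both missed the threshold, Sppl2a at 0.29 (edgeR, adjusted p = 0.539) and Marchf8 with a larger fall, at -0.91 (edgeR, adjusted p = 0.0551). Ctsl, a cathepsin, was called higher at 0.38 (edgeR, adjusted p = 0.0358) and Ifi30, the lysosomal thiol reductase, lower at -0.41 (edgeR, adjusted p = 0.0265), but the call was lost under 9 of 18 alternatives for Ctsl and under 8 of 18 for Ifi30. Ctss, the cathepsin that makes the last cuts in Cd74 in many presenting cells, stood at -0.26 (edgeR, adjusted p = 0.349). Ctsb (0.34), Ctsd (-0.25), Ctsh (0.81), Lgmn (0.17) and Lamp1 (-0.25) did not pass either. Ctsh stood at 70.9 normalized CPM in TNF replicate 4 and at 23.7 to 31.5 in the other TNF libraries, and Marchf1 had a single count in 1 TNF library.

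Among costimulatory genes, Cd40 and Icosl were called higher. Cd40, the receptor for the T cell ligand CD40L, had 0 counts in each PBS library and 42, 32, 49 and 23 in TNF (1.57 ± 0.368 normalized CPM). Against a limit of 3 counts per PBS library that is at least 16.6-fold higher, and the gene passed the filter through the TNF group alone. Icosl, the ligand of the T cell receptor ICOS, went from 0.938, 1.56, 1.30 and 1.67 normalized CPM to 13.6, 17.99, 32.63 and 7.04, a rise of 3.71 (SE 0.42, edgeR adjusted p = 5.58e-05). The classical costimulators were nearly uncounted, with 0 counts of Cd86 in every library and 3 to 12 of Cd80. Pdcd1lg2, which encodes the inhibitory ligand PD-L2, also had 0 counts in every library. Cd274, which encodes the related ligand PD-L1, stood at 0.53 on the log2 scale (SE 0.36, edgeR adjusted p = 0.255). Of the remaining class II genes, H2-Eb2, H2-Oa and H2-Ob had 0 counts in every library, which allows a level of up to 0.0679 to 0.258 normalized CPM (3 counts in a library). Over all 45 listed pathway genes 36 were tested, of which 16 were higher and 3 lower (19 of 36, beside 43.0% of all genes tested, with 23.4% higher and 19.6% lower). Of these, Cd40, Socs1 and Prdm1 passed the filter through the TNF group alone, and the lists were chosen with earlier results of these data known.

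**Figure D3:**
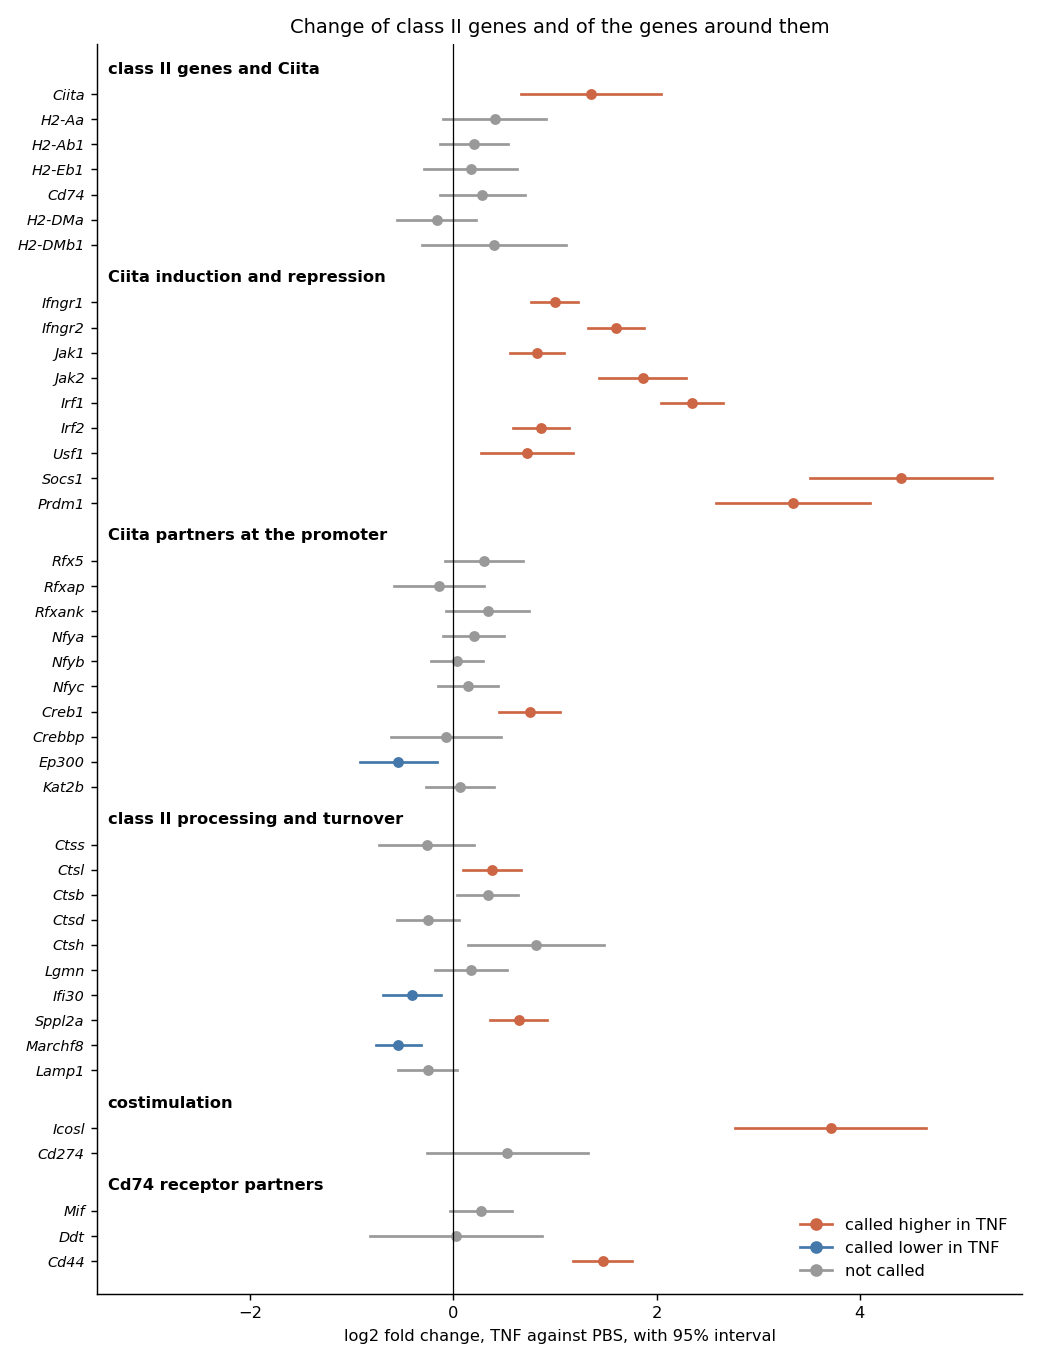
Log2 fold change of TNF against PBS with its 95% interval for the 7 genes and the tested, reported genes of the pathway lists, coloured by call (edgeR, adjusted p under 0.05). Cd40, at 0 counts in all PBS libraries, is not drawn, the genes drawn for Ciita induction and repression all lie above 0, and the intervals of the 6 structural class II genes cross 0.

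Markers of other cells were read beside these genes, since leukocytes carry much more class II than epithelium. Fewer cells of a type and less RNA per cell cannot be told apart in such bulk samples. Of 5 leukocyte markers, Cd53 and Cd48 had 0 counts in all libraries, Laptm5 and Coro1a at most 1, and Ptprc (CD45) 0 to 10, and the summed level was 0.112 to 0.394 normalized CPM in PBS and 0 to 0.773 in TNF. Of 8 dendritic cell markers 6 had 0 counts everywhere, Itgax and Flt3 among them, and Zbtb46 gave 5 to 13 counts, for sums of 0.197 to 0.260 and 0.208 to 0.945. Of 8 macrophage markers Adgre1, Fcgr1 and C1qb had 0 counts everywhere, Csf1r (log2 fold change 0.51, edgeR adjusted p = 0.0721) and Lyz2 (1.37, edgeR adjusted p = 0.0805) were counted but did not pass. Lyz2 stood at 64.3 normalized CPM in TNF replicate 4 and at 9.44 to 12.2 in the other TNF libraries, and C1qa had 24 counts in TNF replicate 4. The macrophage sum was 9.14 to 13.4 in PBS and 12.8 to 69.5 in TNF, with the top value in TNF replicate 4, and its part in the class II levels was not tested. That sum was mostly Lyz2. The PC marker Lyz1, close to Lyz2 on chromosome 10, stood at 454156 normalized CPM in TNF replicate 4. Whether reads of Lyz1 were counted for Lyz2 was not tested.

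Of the 8 B and plasma cell markers, Cd79a had 0 counts everywhere. Ms4a1 (log2 fold change 2.94, edgeR adjusted p = 0.000207) and Cd79b (3.31, edgeR adjusted p = 0.00105) were called higher, on at most 30 counts in a TNF library and 5 in a PBS library. Both passed the filter through the TNF group alone. The sum of the list was 0.136 to 0.268 in PBS and 0.994 to 2.15 in TNF, which moved with the group as Ciita did, and its part in the Ciita result was not tested. Of 5 T and innate lymphoid cell markers 4 had 0 counts in all libraries. Markers of stroma and endothelium summed to at most 0.450 normalized CPM.

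Among epithelial lists, the stem cell markers matter most beside class II genes, because crypt stem cells are known to present antigen. Of 5 stem cell markers 4 were lower in TNF, namely Lgr5 (log2 fold change -1.21, edgeR adjusted p = 8.41e-05), Ascl2 (-2.13, edgeR adjusted p = 0.00468), Smoc2 (-0.56, edgeR adjusted p = 0.00685) and Axin2 (-1.53, edgeR adjusted p = 0.000110). Of all genes tested 19.6% were called lower and 23.4% higher, the shares to set beside this and the other epithelial lists. The sum of these 4 with Olfm4 was 1454 to 2351 normalized CPM in PBS and 1312 to 1855 in TNF, and its part in the class II levels was not tested. Most of that sum was Olfm4, at a mean of 1743 in PBS, which was not called (log2 fold change -0.23, edgeR adjusted p = 0.419). The sum therefore says little about the 4 genes called lower. Of 7 enterocyte markers Apoa4 was lower, of 5 goblet cell markers Muc2 was higher and Clca1 and Fcgbp lower (Clca1 at 554 normalized CPM in PBS replicate 1, 41.1 to 44.0 in the other PBS libraries and 23.95 to 42.2 in TNF, its call not being refitted without that library), and of 3 tuft cell markers 0 were called. The 6 PC markers summed to 310411 to 458599 normalized CPM in PBS and 387173 to 1207686 in TNF, with 0 of 6 called, so markers of the labelled cell type were abundant in every library.

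**Figure D4:**
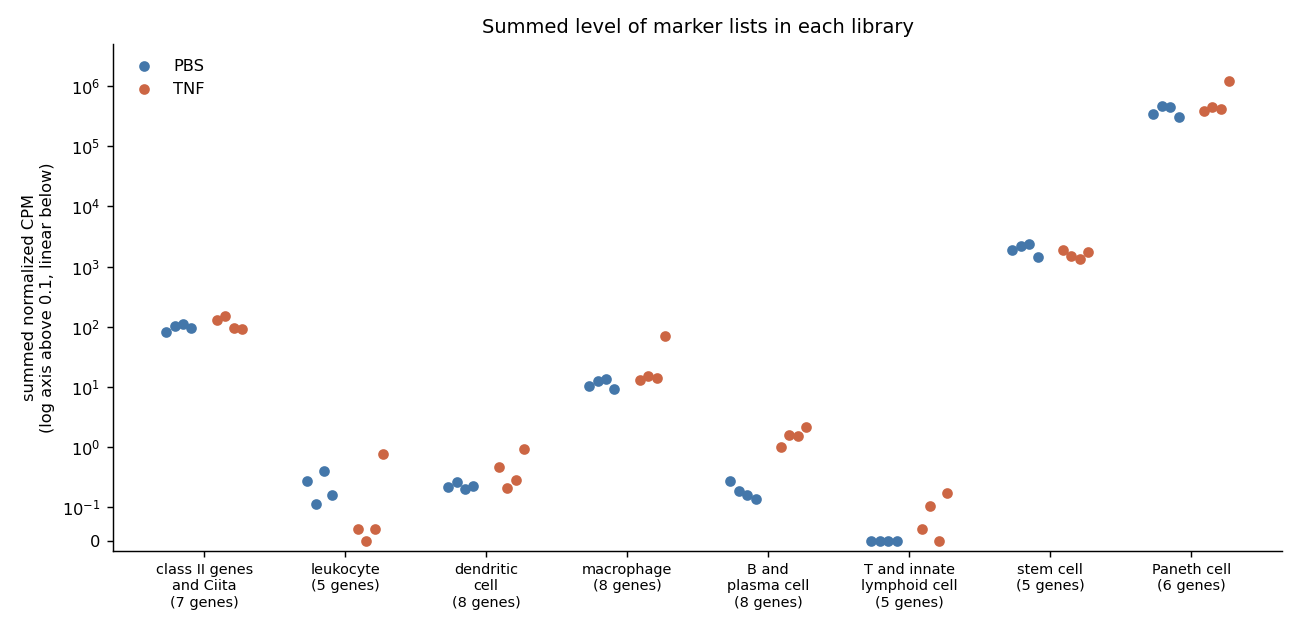
Summed normalized CPM of the 7 genes and of marker lists in each of the 8 libraries (vertical axis logarithmic above 0.1 and linear below it). Leukocyte and dendritic cell sums stay below 1 in both groups while the sums of the 7 genes lie between 80.4 and 150.3, and the B and plasma cell sums are higher in TNF (0.994 to 2.15) than in PBS (0.136 to 0.268).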

How the data were processed

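RNA from sorted PCs of mice given PBS or TNF was measured in 4 libraries per group (Aurum Total RNA Mini kit, TruSeq Stranded mRNA kit). The file the authors deposited gives raw, unnormalized counts, 1 column per library, for 55414 Ensembl IDs. The submitters' processing notes name FastQC 0.12, STAR 2.7.10a, DESeq2 and mm39. The counter, its annotation, and its use of strand and of reads matching several genes were not given in the sources used, so counts of H2-DMb1 and of genes that overlap on opposite strands are less certain.

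Symbols, positions and canonical transcripts came from GENCODE M39 (GRCm39), which matched 54749 IDs and left 665 (0.0386% of counts), kept in library sizes and tests. The share of 75-base stretches found in no other gene was computed from the same transcripts. Promoters came from RefSeq (GRCm38.p6).

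All 8 libraries entered 1 edgeR 4.0.16 model (R 4.3.3) with group as its only term, TMM factors and filterByExpr, and TNF was set against PBS by the quasi-likelihood F test. Genes were called at a Benjamini-Hochberg adjusted p under 0.05 over 13368 genes. The procedure was tested on simulated data with known changes. Standard errors came from the F statistic. Count ratios within libraries (0.5 added to each count) were compared by two-sided exact permutation tests. Counting intervals are exact 95% Poisson intervals. Like the limit of 3 counts put in place of a 0, they cover only counting error, as no molecular identifiers are described. No 2 libraries of a group were duplicates (lowest chi-square per degree of freedom 8.77). Same-numbered libraries of the 2 groups did not deviate together (r -0.144 to 0.0663), so the replicate numbers were not taken to pair them.

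The 7 genes, the pathway and marker lists, and the tests were chosen with earlier results of these data known. Named were the 7 genes, all called pathway genes and those on which a result turned, called markers and defining markers at or near 0, and the 5 genes nearest in pattern to the 7 and to Ciita (centred log2 CPM, prior count 2). Genes of the lists that are not reported here are neither named nor drawn, and stay in the counts. Alternatives were RLE, upper quartile and library size scaling, TMM without Defa genes, 2 other filters, DESeq2 1.42.0, limma-voom (limma 3.58.1), a replicate block, an adjusted p under 0.01, other pseudocounts, and leaving out each library.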

Additional observations from a re-analysis of the deposited data

Results flagged for a closer look

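Among 26 sets of 4 libraries examined for a value far from the rest (each gene and each ratio in each group), 1 stood out. The log2 ratio of H2-DMa to H2-DMb1 counts was 1.64 in PBS replicate 2, while the other PBS libraries lay between 1.27 and 1.31, and its gap to the nearest was 0.913 of the whole range, above Dixon's critical value for 4 samples. Chance sets apart about 1 in 20 such groups. The ratio rested on 148 and 47 counts in that library, and the TNF libraries spanned 0.26 to 2.06.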

How the results depend on the processing

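Library size alone called 3182 genes (757 higher, 2425 lower) in place of 5747 (3122 higher, 2625 lower), 0 of the 7 class II genes in place of 1, and 9 pathway genes (8 higher, 1 lower) in place of 19. It turned the log2 fold changes of H2-Ab1 to -0.16, H2-Eb1 to -0.16, Cd74 to -0.038 and Ctsl to -0.0034, while moving the median of all genes by -0.40. Upper quartile scaling called 6140 genes (2246 higher, 3894 lower) and put H2-Eb1 at -0.018, and an adjusted p under 0.01 left 3909 genes. Leaving out 1 library at a time gave 4756 to 6922 genes, 17 to 21 pathway genes and 1 to 3 of the 7, with 3 reached without TNF replicate 4. H2-Eb1 ran from -0.017 (without TNF replicate 2) to 0.31. The ratio of H2-Eb1 to H2-Ab1 ran from -0.10 to 0.061 (0.059 without PBS replicate 3, 0.061 without TNF replicate 4), and that of Cd74 to the I-A chains from -0.073 to 0.085 (0.040 without PBS replicate 1, 0.018 without PBS replicate 3, 0.085 without TNF replicate 4). The ratio of H2-Ab1 to H2-Aa ran from -0.35 to -0.077, and that of the H2-M chains to the I-A chains from -0.47 to -0.13. Beyond the change in the scaling or the libraries, the cause was not tested. With the replicate block, 5087 genes were called (2741 higher, 2346 lower), 1 of the 7 (Ciita, log2 fold change 1.34, edgeR adjusted p = 0.0319) and 18 pathway genes, Ifi30 being lost. For a ratio, an exact sign-flip test over same-numbered libraries cannot go below p = 0.125. Ciita counts of 17 to 131 per library limit its precision.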
